A study of Mus musculus with 83 samples.

Results

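Matrix metalloproteinases (MMPs) and their tissue inhibitors (TIMPs) were examined in the colon of aging mice through 10 genes, chosen by name, of the 37764 genes in the count table: the protease genes Mmp2, Mmp3, Mmp9, Mmp11, Mmp13 and Mmp14 and the inhibitor genes Timp1, Timp2, Timp3 and Timp4. Gene positions are given on build GRCm38. All 10 had enough counts to be tested, in a set of 18325 genes tested. The samples were bulk RNA from the proximal colon of 83 male C57BL/6J/Ukj mice, an inbred strain with no transgene or treatment, with 16 mice at each of 3, 9 and 15 months, 17 of 24 months and 18 of 28 months. Each mouse gave 1 library, and the libraries were made in 3 preparation batches that each held 4 to 7 mice of every age. All mice were male, so the values say nothing of females.

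MMPs are zinc-dependent enzymes that cut collagens, proteoglycans and other proteins of the extracellular matrix, and they also release growth factors and cytokines from their bound or precursor forms. They are made as inactive proenzymes, so the amount of mRNA is not the amount of active enzyme. TIMPs bind the active site of MMPs, and in the gut wall both kinds of gene are expressed mainly in fibroblasts and other mesenchymal cells, with macrophages and neutrophils as further sources of some members.

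Promoter sequences of RefSeq (build GRCm38.p6, from 250 bases before to 50 bases after the annotated start) were found for 8 of the 10 genes. Mmp3 and Mmp13, from the cluster of MMP genes on chromosome 9, are shown first because theirs were the promoters among the 8 that held both a TGANTCA sequence, the site bound by AP-1 (dimers of Fos and Jun proteins), and a TATAAA sequence, and because these genes are compared with each other below. In these first stretches the capitals mark TGANTCA and TATAAA. Mmp14 and Timp3, which were higher at 28 months, held neither sequence, and in their stretches the capitals mark CG dinucleotides, the bases at which DNA is methylated. All stretches are 110 bases on the plus strand, and end before the annotated start of their own gene. That of Timp3 lies within Syn3, a gene on the opposite strand, and holds no exon of it.
Mmp3, chr9:7445712-7445821: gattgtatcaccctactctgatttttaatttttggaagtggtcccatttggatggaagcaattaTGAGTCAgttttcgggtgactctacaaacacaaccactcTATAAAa
Mmp13, chr9:7272404-7272513: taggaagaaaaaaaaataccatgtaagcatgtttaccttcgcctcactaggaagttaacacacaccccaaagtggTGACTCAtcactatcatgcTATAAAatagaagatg
Mmp14, chr14:54431488-54431597: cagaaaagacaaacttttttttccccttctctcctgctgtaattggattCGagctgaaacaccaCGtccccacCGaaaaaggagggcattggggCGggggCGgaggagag
Timp3, chr10:86300262-86300371: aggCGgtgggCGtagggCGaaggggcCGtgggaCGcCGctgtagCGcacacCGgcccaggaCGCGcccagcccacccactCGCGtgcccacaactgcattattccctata

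The TGANTCA match began 46 bases before the annotated start in Mmp3 and 35 bases before it in Mmp13, and the TATAAA match began 7 and 16 bases before it. The motif TGANTCA, which reads the same on both strands, was present in 7.81% of the 32851 promoter windows in the table, TATAAA on either strand in 13.6%, and both together in 1.54%. The whole 300-base window held 1 CG in Mmp3 and 1 in Mmp13, against 10 in Mmp14, 24 in Timp3, 25 in Timp2 and 19 in Mmp11, with a median of 7 over all windows. Timp1 had 8 and Timp4 had 2. A match of letters describes the window and not the binding of a factor.

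Libraries held 23026370 to 75838290 counted pairs (median 35495123), and each member was covered by a median of 27 (Timp4) to 3784 (Timp3) counts per mouse. Fibroblast, smooth muscle and epithelial markers were counted in every mouse, but the muscle content of the samples varied. The summed smooth muscle markers ranged from 922 to 6157 TPM at 3 months and from 1465 to 6053 TPM at 9 months. The lowest mouse had 3832 TPM at 15 months, 3663 TPM at 24 months and 2835 TPM at 28 months. Of the libraries, 4 had a quality weight under 0.3, one each at 3, 9, 15 and 28 months, and without them 5 members differed between 3 and 28 months, where 50.6% of all genes did. Some members overlap another gene on the opposite strand (Mmp11 with Chchd10, Timp1 with Syn1, Timp3 with Syn3, Timp4 with Syn2), but the reads were counted by strand. Timp2 overlaps Cep295nl on its own strand, which had a median of 6 counts against 3580 for Timp2.

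Levels between genes were compared as TPM, which divides by gene length. The most abundant of the 10 was Timp2, with a mean of 79.6 ± 14.3 TPM (SD, n = 83), followed by Mmp14, the membrane-bound protease that activates pro-Mmp2, at 46.8 ± 5.27 TPM and by the gelatinase gene Mmp2 at 43.8 ± 7.14 TPM. Timp3, the inhibitor that is held in the matrix, had a mean of 39.0 ± 8.34 TPM. The ranges of these 4 genes over the mice overlapped. A second level held Mmp13 (6.82 ± 2.30 TPM), Timp1 (5.59 ± 1.25 TPM), Mmp11 (5.11 ± 1.15 TPM), Mmp9 (2.95 ± 1.11 TPM) and Mmp3 (2.40 ± 1.01 TPM), all below the 4 abundant genes in every mouse. Timp4 was the lowest, at 0.448 ± 0.242 TPM. Mmp14 and Mmp2 carried between 74.8% and 89.8% of the summed TPM of the 6 protease genes in each mouse, and Timp2 and Timp3 between 91.7% and 97.6% of that of the 4 inhibitor genes.

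**Figure D1:**
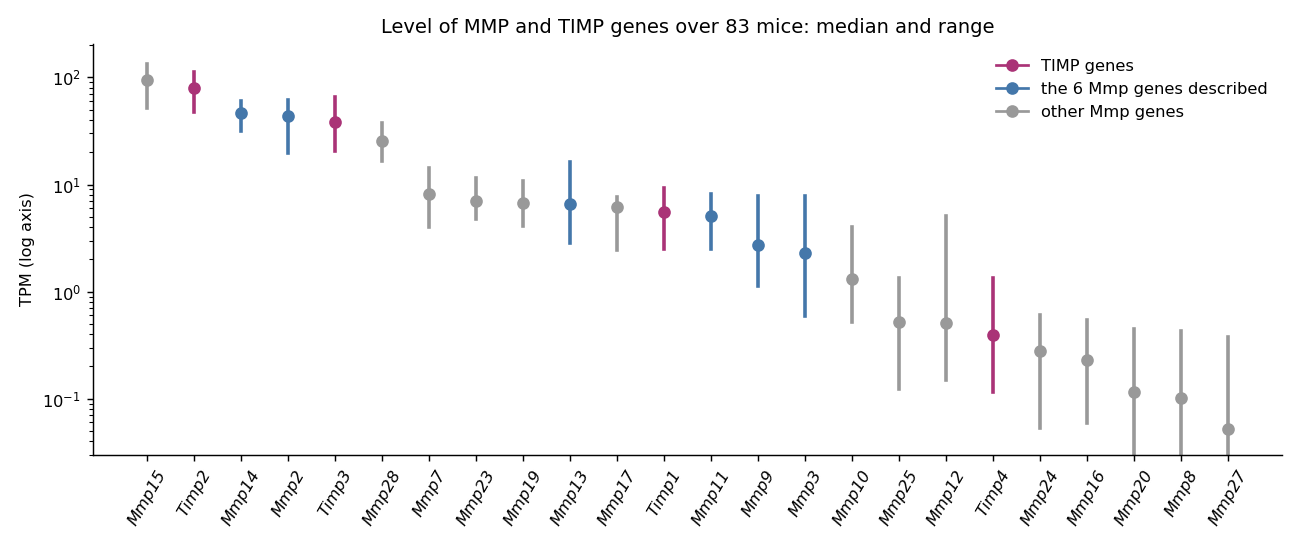
Level of the MMP and TIMP genes in TPM on a log axis, with the median as a point and the range over 83 mice as a line, for each gene with a median above 0. Lines that reach the bottom of the plot continue to 0 TPM. Timp2, Mmp14, Mmp2 and Timp3 lie above the other members, and Mmp15 and Mmp28 are the abundant genes among the other MMPs.

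Of the other 17 MMP genes listed, 16 were in the table and 11 passed the filter on low counts. The membrane-type Mmp15 had the highest mean of all, 94.8 ± 12.8 TPM, and the epithelial Mmp28 had 25.2 ± 3.82 TPM. The neutrophil collagenase gene Mmp8 had a median of 3 counts per mouse, and Mmp1a a median of 0, and neither was tested.

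The question was how these genes change along the lifespan. In the test of any difference among the 5 ages, 7 of the 10 members passed an adjusted p-value of 0.1 (edgeR quasi-likelihood F-test, Benjamini-Hochberg adjustment over all genes), where 54.9% of all genes tested did. The members past the threshold were Timp3 (adjusted p = 7.3e-10), Mmp9 (5.9e-07), Timp2 (1.6e-06), Mmp11 (8.8e-06), Mmp14 (0.0011), Timp4 (0.0093) and Mmp2 (0.088). Mmp3 (adjusted p = 0.26), Mmp13 (0.39) and Timp1 (0.19) did not pass. In the test of departure from a straight line in age, Mmp9 alone of the 10 passed (adjusted p = 4.1e-06), where 16.2% of all genes did.

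Between 3 and 28 months, 5 members were higher at the older age and none was lower, where 23.5% of all genes were higher and 25.9% lower. The 5 were Timp4, Timp3, Mmp11, Timp2 and Mmp14. The median log2 fold change of the 10 members was 0.14, beside -0.01 for all genes tested. Between 15 and 24 months, 3 members were higher (Mmp11, Timp3 and Timp2) and 1 was lower (Mmp9), where 6.28% of all genes were higher and 7.24% lower. Between 3 and 9 months, Mmp9 alone was higher, where 3.64% of all genes were higher and 5.05% lower, and between 24 and 28 months Mmp9 alone was lower, where 5.66% were higher and 6.01% lower. Between 9 and 15 months no member passed in edgeR, DESeq2 or limma-voom, where 0.431% of all genes did in edgeR. At an unadjusted p below 0.05 this comparison had 1 member in edgeR, 1 in DESeq2 and 2 in limma-voom, where 9.18% of all genes had such a p in edgeR. In the comparison of 9 with 24 months, where 15.5% of all genes passed, Mmp11, Timp3, Timp2 and Mmp14 were higher at 24 months. None of these 4 passed between 9 and 24 months in a single batch, where 0.704%, 1.62% and 0.589% of all genes did. With macrophage and neutrophil scores in the model, 14.5% of all genes passed. Among them was Timp3 (adjusted p = 0.018), while Mmp11 (0.18), Timp2 (0.12) and Mmp14 (0.58) did not pass. Mmp14 did not pass with fibroblast and smooth muscle scores either (adjusted p = 0.36). Comparisons with a common age share its mice and are not independent of each other. In bulk tissue, fewer cells of a type and less RNA per cell cannot be told apart.

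**Figure D2:**
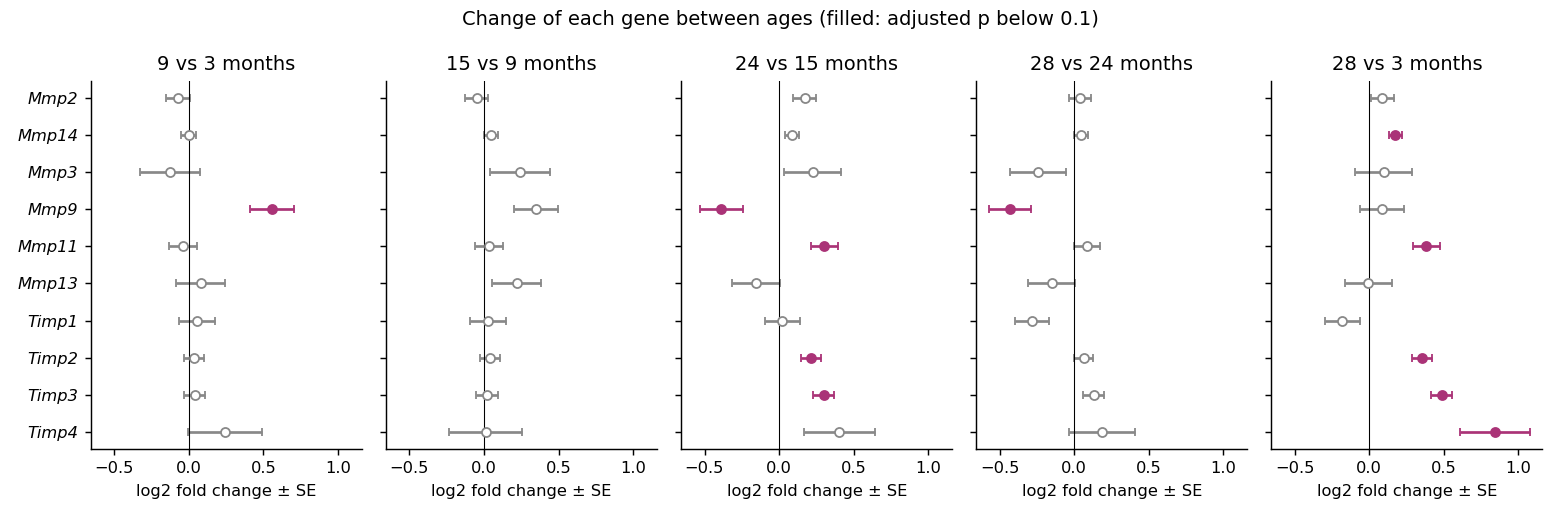
Log2 fold change (older minus younger age) with its standard error for each of the 10 genes in the 4 steps between neighboring ages and between 3 and 28 months. Filled points passed an adjusted p of 0.1. The filled points of Timp2, Timp3 and Mmp11 are in the step from 15 to 24 months and over the whole span, and those of Mmp9 lie to the right at 9 months and to the left at 24 and 28 months.

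Timp3 (chr10:86300372-86349506, plus strand) had the lowest adjusted p-value of the members. The level, in normalized CPM (the share of a mouse's library, after TMM normalization), had a median of 93.1 at 3 months (lowest 56.3, highest 106.4), of 92.8 at 9 months (61.1 to 121) and of 95.5 at 15 months (72.8 to 110.4). It then reached a median of 111 at 24 months (97.6 to 137) and of 126 at 28 months (98.1 to 168). All 18 mice of 28 months lay above the median of the 3-month mice, and 15 lay above the highest of them, although the ranges overlapped. The log2 fold change was 0.49 ± 0.07 (SE) between 3 and 28 months (adjusted p = 3.1e-08) and 0.30 ± 0.07 between 15 and 24 months (adjusted p = 0.0046). The steps from 3 to 9 months (0.04 ± 0.07, adjusted p = 0.82), from 9 to 15 months (0.02 ± 0.07, 0.97) and from 24 to 28 months (0.13 ± 0.07, 0.26) did not pass. Within the 3 library batches, Timp3 differed by 0.50, 0.48 and 0.51 between 3 and 28 months. Between 15 and 24 months the batch values were 0.34, 0.18 and 0.44, and none passed (adjusted p = 0.55, 0.45 and 0.29).

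Timp2 (chr11:118301069-118355740, minus strand), which inhibits MMPs but also takes part in the activation of pro-Mmp2 on the cell surface together with Mmp14, passed in both of these comparisons too. Its median was 93.2 CPM at 3 months (63.4 to 111), 91.0 at 9 months (67.4 to 119) and 94.9 at 15 months (66.6 to 114). At 24 months it was 113 (91.4 to 136) and at 28 months 119.9 (89.6 to 138). Of the 28-month mice, 16 of 18 lay above the 3-month median and 12 above the highest 3-month mouse. Timp2 had a log2 fold change of 0.35 ± 0.07 between 3 and 28 months (adjusted p = 8.9e-06) and 0.21 ± 0.07 between 15 and 24 months (adjusted p = 0.035). The latter call was lost with macrophage and neutrophil scores in the model (0.12, adjusted p = 0.18) and in each batch alone (0.20, 0.16 and 0.30, adjusted p = 0.81, 0.40 and 0.45).

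Timp4 (chr6:115241892-115252205, minus strand) was the least abundant inhibitor and had the largest log2 fold change of the members between 3 and 28 months. Its median was 0.591 CPM at 3 months (0.304 to 1.17), 0.668 at 9 months (0.222 to 1.43), 0.698 at 15 months (0.338 to 1.61), 0.953 at 24 months (0.390 to 2.04) and 1.02 at 28 months (0.499 to 2.57). The groups overlapped, with 17 of 18 mice of 28 months above the 3-month median and 6 above the highest 3-month mouse, while 4 mice of 3 months lay below the lowest of 28 months. The fold change between 3 and 28 months was 0.84 ± 0.23 on the log2 scale (adjusted p = 0.0024), from medians of 22.5 and 37.5 counts per mouse. Within the batches it was 0.55, 0.86 and 1.27, and it did not pass in batches 1 and 2 (adjusted p = 0.37 and 0.15). No step between neighboring ages passed, the widest being 0.40 ± 0.24 between 15 and 24 months (adjusted p = 0.29). The adipocyte markers moved with Timp4 in part: 2 of 5 were higher at 28 than at 3 months, Cidec by 0.57 and Pnpla2 by 0.23, while the defining marker Adipoq, at 0 in 2 mice, differed by 0.64 without passing (adjusted p = 0.40). The summed level of the 5 adipocyte markers ranged from 151 to 264 TPM at 3 months and from 184 to 336 TPM at 28 months, and its part in the Timp4 result was not tested.

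Timp1 (chrX:20870166-20874735, plus strand), the inhibitor gene that is induced in wounds and inflammation, did not pass the threshold between 3 and 28 months. Its median was 1.56 CPM at 3 months (1.22 to 2.36), 1.68 at 9 months (1.26 to 2.55) and 1.77 at 15 months (1.04 to 2.31). It was 1.69 at 24 months (1.05 to 2.87) and 1.44 at 28 months (0.737 to 2.32). The groups overlapped throughout, and 12 of 18 mice of 28 months lay below the 3-month median. The difference between 3 and 28 months was -0.18 ± 0.12 (adjusted p = 0.22), with a 95% interval from -0.42 to 0.05. It passed as lower with fibroblast and smooth muscle scores (-0.28, adjusted p = 0.030) and with macrophage and neutrophil scores (-0.48, adjusted p = 0.00035) in the model. Between 15 and 28 months Timp1 was lower by a log2 fold change of -0.26 ± 0.12 (adjusted p = 0.080), in a comparison where 42.4% of all genes passed. This call of Timp1 was lost without the filter on low counts (adjusted p = 0.16), in DESeq2 (0.11), with these ages alone (0.16), without a pair of 15-month mice described under Mmp9 (0.27) and in library batch 2 (0.48), and in batch 3 the sign changed (0.12, adjusted p = 0.84).

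Among the proteases, Mmp11 (chr10:75923222-75936496, minus strand), or stromelysin-3, which is made by fibroblasts and acts on few matrix proteins, passed in the same comparisons as Timp2 and Timp3. Its median was 4.30 CPM at 3 months (2.31 to 5.57), 4.09 at 9 months (2.72 to 5.75) and 4.21 at 15 months (3.00 to 5.35). At 24 months it was 5.28 (3.89 to 6.15) and at 28 months 5.36 (3.12 to 7.33). Of the 24-month mice, 16 of 17 lay above the 15-month median, yet the ranges overlapped. Mmp11 had a log2 fold change of 0.30 ± 0.09 between 15 and 24 months (adjusted p = 0.024) and 0.38 ± 0.09 between 3 and 28 months (adjusted p = 0.00024). In library batch 1 alone the latter was 0.19 and did not pass (adjusted p = 0.48), while in batches 2 and 3 it was 0.58 and 0.45. Between 15 and 24 months Mmp11 did not pass in any batch alone (adjusted p = 0.87, 0.30 and 0.35) or with macrophage and neutrophil scores (0.19, adjusted p = 0.13).

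Mmp14 (chr14:54431612-54445364, plus strand) showed a smaller change on a high level. Its median was 88.2 CPM at 3 months (66.4 to 106), 87.6 at 9 months (74.0 to 102) and 93.2 at 15 months (61.2 to 97.2). At 24 months it was 97.9 (79.1 to 109.8) and at 28 months 96.7 (77.6 to 116). The ranges overlapped, with 15 of 18 mice of 28 months above the 3-month median. The log2 fold change was 0.18 ± 0.05 between 3 and 28 months (adjusted p = 0.0013), and no step between neighboring ages passed. Against 3 months, the 24-month mice already differed by 0.13 ± 0.05 (adjusted p = 0.030), in a comparison where 34.5% of all genes passed. Mmp9, Timp2, Timp3, Timp4 and Mmp11 passed there too. Of 16 alternatives, the call was lost in 1 for Timp3, in 2 for Timp2 and in 4 each for Mmp9 and Mmp11. For Timp4 it was lost in 4 of 15, and the sign changed in 1 more. The difference in Mmp14 between 3 and 24 months did not pass within any batch (0.079, 0.14 and 0.18, adjusted p = 0.72, 0.21 and 0.23). Nor did it pass with fibroblast and smooth muscle scores (0.028, adjusted p = 0.64) or macrophage and neutrophil scores (0.030, adjusted p = 0.69) in the model. With scores of macrophage and neutrophil markers in the model, the difference in Mmp14 between 3 and 28 months was 0.07 and did not pass (adjusted p = 0.18), nor did it in library batch 1 alone (0.10, adjusted p = 0.40).

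Mmp2 (chr8:92827291-92853420, plus strand), the proenzyme that Mmp14 and Timp2 activate together, did not pass over the whole span. Its median was 51.4 CPM at 3 months (34.7 to 62.5), 46.1 at 9 months (39.2 to 53.1) and 45.4 at 15 months (21.9 to 58.4). It was 52.9 at 24 months (36.5 to 59.4) and 51.6 at 28 months (35.5 to 67.1). By the mean, which was 50.4 CPM at 24 months and 51.9 CPM at 28 months, the order of the ages was 15, 9, 3, 24 and 28 months. No neighbors in that order passed the test. The log2 fold change was 0.09 ± 0.08 between 3 and 28 months (adjusted p = 0.37). It was 0.21 ± 0.08 between 15 and 28 months (adjusted p = 0.025) and 0.16 ± 0.08 between 9 and 28 months (adjusted p = 0.095). In the latter comparison 40.0% of all genes passed. Among the other members, Mmp11, Mmp14, Timp2, Timp3 and Timp4 passed as higher at 28 months and Mmp9 as lower. Of 16 alternatives, the call was lost in 3 each for Mmp9 and Mmp14, in 1 each for Mmp11 and Timp3 and in 0 for Timp2. For Timp4 it was lost in 4 of 15. The calls of Mmp2 depended on the model: the test of any difference among the ages did not pass without the filter on low counts or without the batch term (adjusted p = 0.11 and 0.12), nor did the comparison of 9 with 28 months (0.15 and 0.10). With macrophage and neutrophil scores Mmp2 differed by -0.037 between 9 and 28 months (adjusted p = 0.65) and by 0.055 between 15 and 28 months (adjusted p = 0.46), and neither comparison passed in any batch alone. With fibroblast and smooth muscle scores the former was 0.055 and did not pass (adjusted p = 0.44), while the latter was 0.12 and passed (adjusted p = 0.067).

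Mmp9 (chr2:164940780-164955850, plus strand), the second gelatinase, typical of macrophages and neutrophils, was higher at 9, 15 and 24 months than at both ends of the span. Its median was 2.52 CPM at 3 months (1.49 to 4.09), 3.86 at 9 months (2.54 to 5.34) and 3.84 at 15 months (3.00 to 10.1). It was 3.78 at 24 months (2.00 to 5.08) and 2.72 at 28 months (1.28 to 4.53). All 16 mice of 9 months and all 16 of 15 months lay above the 3-month median, while 17 of 18 mice of 28 months lay below the 15-month median. The log2 fold change was 0.56 ± 0.15 between 3 and 9 months (adjusted p = 0.018) and 0.91 ± 0.15 between 3 and 15 months (adjusted p = 5.5e-06), where 7.75% of all genes passed. It was -0.39 ± 0.14 between 15 and 24 months (adjusted p = 0.081), -0.43 ± 0.14 between 24 and 28 months (adjusted p = 0.046) and -0.82 ± 0.14 between 15 and 28 months (adjusted p = 5.4e-06). The rise by 9 months did not pass in limma-voom with quality weights (0.43, adjusted p = 0.11) or in any batch alone (0.35, 0.62 and 0.73, adjusted p = 0.91, 0.54 and 0.20). The fall after 24 months did not pass in any batch alone either (-0.61, -0.40 and -0.25, adjusted p = 0.18, 0.81 and 0.81). At 28 months Mmp9 was at 0.09 ± 0.15 from its 3-month level (adjusted p = 0.66). The 24-month mice differed from those of 3 months by 0.52 ± 0.15 (adjusted p = 0.0058), and this call was lost in 4 of 16 alternatives. Between 9 and 28 months the log2 fold change was -0.47 ± 0.14 (adjusted p = 0.0082), a call lost in 3 of 16.

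A pair of 15-month mice, both of library batch 1, had Mmp9 levels of 10.1 and 9.50 CPM, and the next had 7.84. Without that pair the log2 fold change of Mmp9 was 0.69 between 3 and 15 months (adjusted p = 0.00036) and -0.59 between 15 and 28 months (adjusted p = 0.00043), while that between 15 and 24 months was -0.17 and no longer passed (adjusted p = 0.46). The call between 15 and 24 months was also lost without the filter on low counts (adjusted p = 0.15), with the replicate block (0.17), with these ages alone (0.15) and in each batch. The departure of Mmp9 from a straight line had an adjusted p of 8.1e-05 without them. Within batches, the difference between 3 and 15 months was 1.13, 0.87 and 0.57 and that between 15 and 28 months was -1.26, -0.77 and -0.24, the batch 3 values not passing (adjusted p = 0.31 and 0.59). Markers of cells that express Mmp9 are set beside it. Of 7 macrophage markers, 6 were higher at 28 than at 3 months, Cd163 by 0.81, and their summed level ran from a median of 320 TPM at 3 months and 319 TPM at 15 months to 414 TPM at 28 months. Of the neutrophil markers, 5 of 8 were tested, of which S100a8, S100a9 and Retnlg were higher and Ly6g lower at 28 months, while Mpo was at 0 in 51 mice. S100a8, S100a9 and Retnlg had low medians of 5, 7 and 21 counts per mouse, and Ly6g had 68. The neutrophil score is the mean of the 5 tested markers. With the scores of both lists in the model, the difference in Mmp9 between 15 and 28 months was -1.0 (adjusted p = 2.0e-09).

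**Figure D3:**
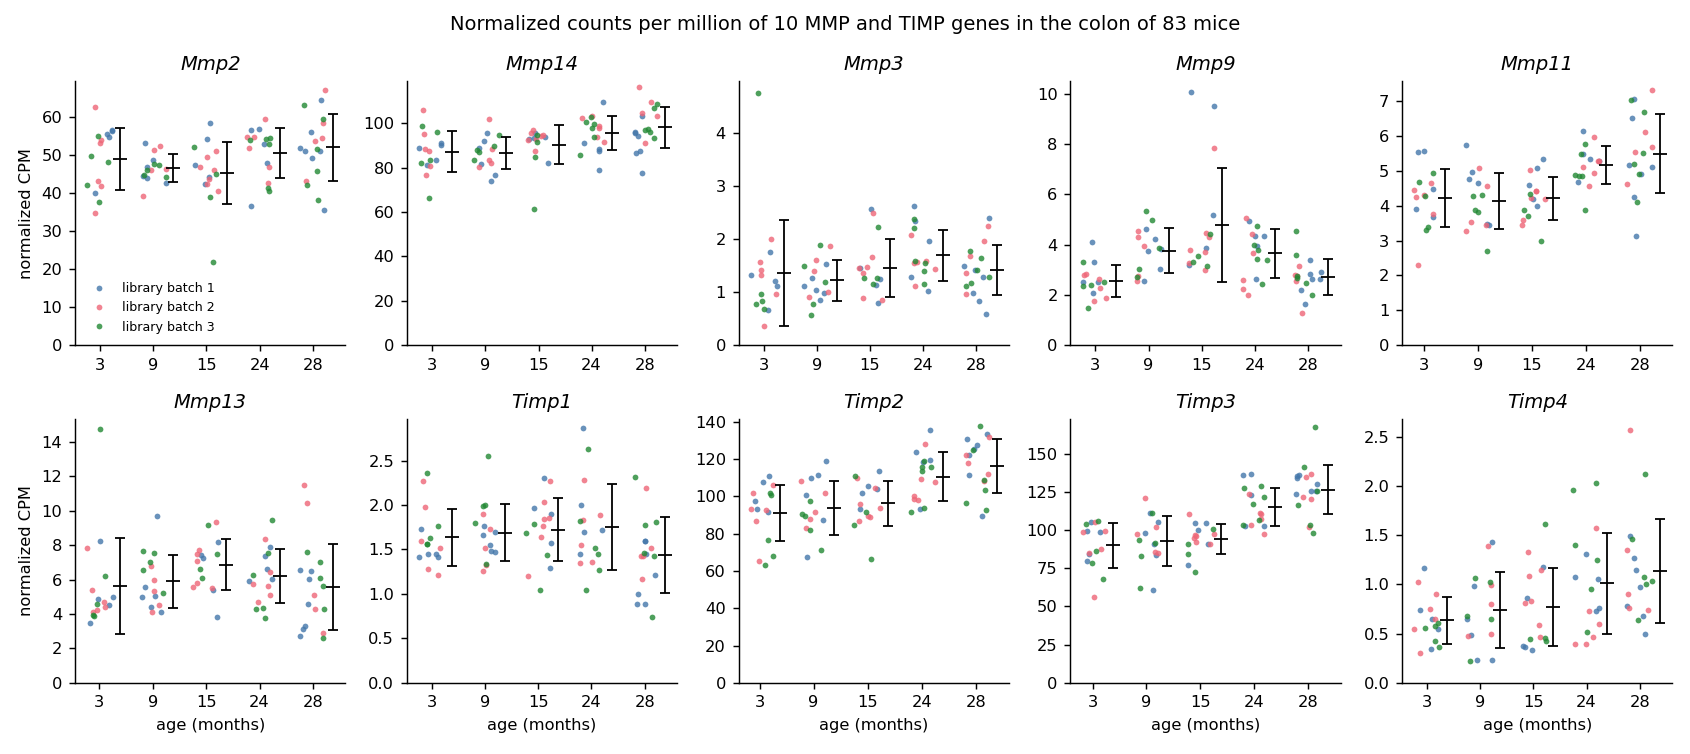
Normalized CPM of each gene in each of 83 mice by age in months, colored by library batch, with the mean and SD of each age as bars. Timp2, Timp3 and Mmp11 lie higher at 24 and 28 months than at 3 to 15 months, Mmp9 lies higher at 9 to 24 months than at 3 and 28 months (its 15-month mean is raised by a pair of mice), and a single 3-month mouse stands apart in Mmp3 and Mmp13.

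Mmp3 (stromelysin-1, chr9:7445822-7455975, plus strand) and Mmp13 (chr9:7272514-7283331, plus strand, the main interstitial collagenase of rodents), whose promoters are shown above, had a wide spread at 3 months that rested in part on the mouse that was highest in both. At that age the SD was 74.1% of the mean for Mmp3 and 49.2% for Mmp13, and without that mouse it was 39.5% and 27.6%, beside 37.3% for Timp4. At each later age Timp4 had the widest spread of the members, 46.3% to 52.1% of the mean. Mmp3 had medians of 1.16 CPM at 3 months (0.357 to 4.75), 1.15 at 9, 1.32 at 15, 1.56 at 24 and 1.38 at 28 months (0.588 to 2.39). Mmp13 had medians of 4.66 CPM at 3 months (3.48 to 14.7), 5.45 at 9, 7.17 at 15, 6.05 at 24 and 5.35 at 28 months (2.58 to 11.5). In both genes the values of all ages overlapped. The log2 fold change between 3 and 28 months was 0.10 ± 0.19 for Mmp3 (adjusted p = 0.71, 95% interval -0.29 to 0.48) and -0.01 ± 0.16 for Mmp13 (adjusted p = 0.98, 95% interval -0.32 to 0.31). A single 3-month mouse had the highest value of both genes at that age, and without it the difference was 0.37 for Mmp3, which passed (adjusted p = 0.073), and 0.16 for Mmp13 (adjusted p = 0.40). In limma-voom with quality weights Mmp3 passed too, at 0.35 (adjusted p = 0.097). Without that mouse Mmp3 (adjusted p = 0.018) and Mmp13 (adjusted p = 0.098) also passed the test of any difference among the 5 ages, where 54.7% of all genes did.

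The spread between mice was compared as well, as the absolute deviation of log2 CPM from the median of the age. Between 3 and 28 months none of the 10 members passed the test of spread (limma, lowest adjusted p = 0.58), where 0.377% of all genes did. None had an unadjusted p below 0.05, where 10.7% of all genes did, so 10 members are too few to tell them from all genes.

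The summed levels describe the balance of mRNA between the 6 protease and 4 inhibitor members in each mouse, without a test. They are not the balance of the whole family, since other MMP genes such as Mmp15 (mean 94.8 TPM) and Mmp28 (25.2 TPM) are left out. Mmp15 was lower at 28 than at 3 months, while Mmp12, also left out, was higher. The 6 protease genes together had 105 ± 15.0 TPM (SD) at 3 months, 103 ± 10.9 TPM at 15 months, 113 ± 10.4 TPM at 24 months and 116 ± 16.5 TPM at 28 months. The 4 inhibitor genes had 111 ± 19.0 TPM at 3 months, 113 ± 13.3 TPM at 15 months, 136 ± 14.1 TPM at 24 months and 147 ± 19.0 TPM at 28 months. The ratio of the sums had a median of 0.945 at 3 months (0.729 to 1.25), 0.891 at 9 months (0.734 to 1.27) and 0.898 at 15 months (0.762 to 1.06). It was 0.848 at 24 months (0.728 to 0.924) and 0.812 at 28 months (0.670 to 0.930). The 3-month and 28-month ranges overlapped, and the highest 28-month mouse lay below the 3-month median. The ratio of Mmp2 to Timp2 went from 0.629 ± 0.092 at 3 months to 0.514 ± 0.047 at 28 months, and that of Mmp9 to Timp1 was 0.403 ± 0.123 at 3 months, 0.688 ± 0.234 at 15 months and 0.505 ± 0.165 at 28 months.

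**Figure D4:**
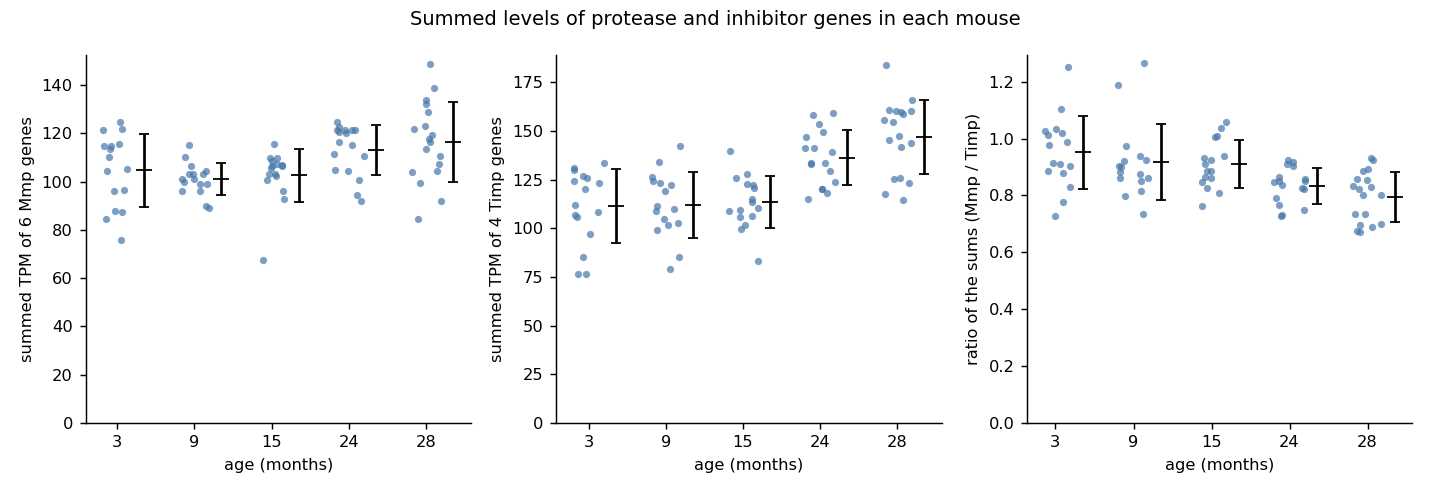
Summed TPM of the 6 protease genes, summed TPM of the 4 inhibitor genes and the ratio of both sums in each of 83 mice by age in months, with the mean and SD of each age as bars. The inhibitor sum goes from a mean of 113 TPM at 15 months to 136 TPM at 24 months and 147 TPM at 28 months.

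Members were then compared across mice in 5 pairs, after the mean of each age and library batch had been removed from log2 CPM. Permutation tests used 100000 resamples within age and batch, two-sided, adjusted over the 5 pairs. Mmp2, Mmp14 and Timp2, paired with each other, share an activation step. The other pairs were Mmp9 with its inhibitor Timp1, and Mmp3 with Mmp13 from the same gene cluster. Mmp2 and Mmp14, the proenzyme and its activator, had a Pearson's r of 0.74 (permutation p = 1e-05, adjusted 2.5e-05, the smallest p these resamples can give) and a Spearman's rho of 0.65 (permutation p = 1e-05, adjusted 2.5e-05). Without the 2 mice farthest from the median of Mmp2, r was 0.67, and within the batches it was 0.57, 0.77 and 0.83. Mmp2 and Timp2 had an r of 0.69 (permutation p = 1e-05, adjusted 2.5e-05) and a rho of 0.70 (permutation p = 1e-05, adjusted 2.5e-05), with 0.64 without the 2 farthest mice and 0.57, 0.58 and 0.84 within batches. Mmp14 and Timp2 had an r of 0.62 (permutation p = 2e-05, adjusted 3.3e-05) and a rho of 0.56 (permutation p = 3e-05, adjusted 5e-05), with 0.56 without the 2 farthest mice and 0.55, 0.67 and 0.64 within batches. These pairs were not the closest relations of their genes. Of 18324 other genes ranked by rho, 209 followed Mmp2 more closely than Mmp14 did and 117 more closely than Timp2 did. For Mmp14, 368 followed it more closely than Timp2 did. In the other direction, Mmp2 had rank 46 for Mmp14 and rank 551 for Timp2, and Mmp14 had rank 1322 for Timp2.

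Mmp9 and its preferred inhibitor Timp1 were related more loosely, with an r of 0.34 (permutation p = 0.0040, adjusted 0.0040) and a rho of 0.36 (permutation p = 0.0027, adjusted 0.0027), an r of 0.31 without the 2 farthest mice and of 0.58, 0.27 and 0.22 within batches. Mmp3 and Mmp13 had an r of 0.45 (permutation p = 0.00031, adjusted 0.00039) and a rho of 0.42 (permutation p = 0.00029, adjusted 0.00036), with 0.36 without the 2 farthest mice and 0.27, 0.44 and 0.60 within batches. By rho, 405 other genes followed Mmp9 more closely than Timp1 did, and 645 followed Mmp3 more closely than Mmp13 did.

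**Figure D5:**
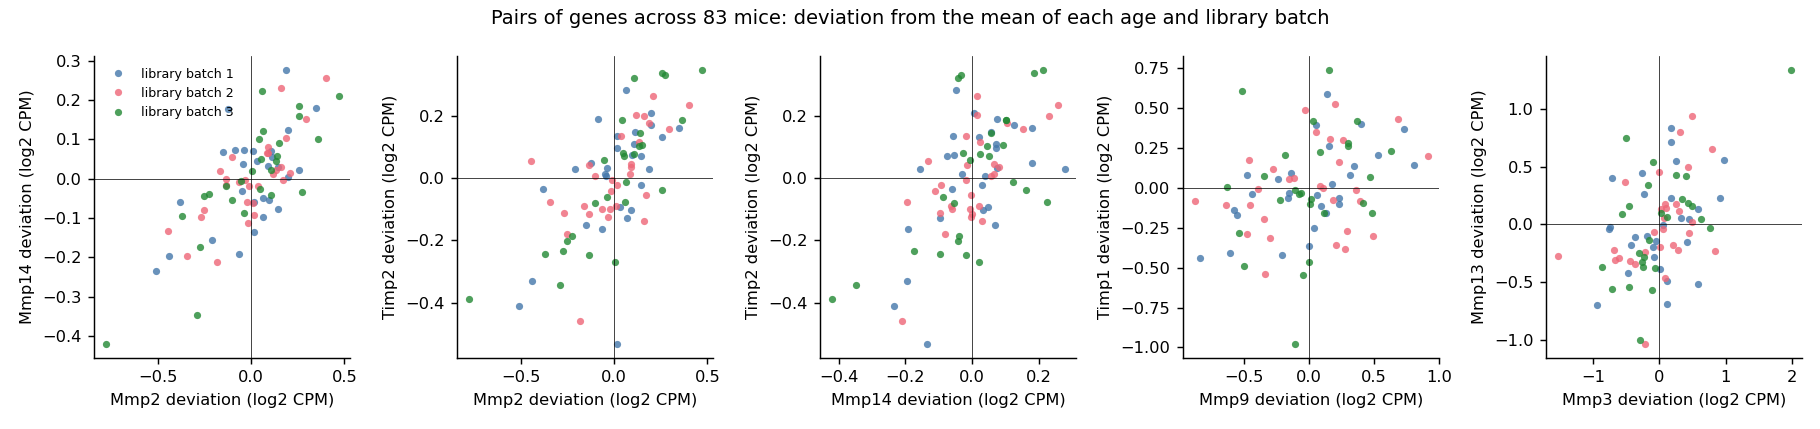
Deviation of log2 CPM from the mean of each age and library batch for 5 pairs of genes, with 1 point for each of 83 mice, colored by library batch. The clouds of Mmp2 with Mmp14 and with Timp2 are narrow (r of 0.74 and 0.69), and that of Mmp9 with Timp1 is wide (r of 0.34).

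The genes most like each member across the mice, by Spearman's rho of the same deviations over 83 mice among all genes tested, are given as a description, as all values of a mouse come from 1 library. For Mmp2 they were the collagen genes Col1a2 (0.89), Col6a1 (0.88) and Col6a2 (0.88), and for Mmp14 they were Col1a2 (0.73), Anxa5 (0.72) and Emilin1 (0.72). Timp2 was closest to Mxra8 (0.92), Cavin1 (0.91) and Marveld1 (0.91), and Mmp11 to Foxf2, a transcription factor gene of the gut mesenchyme (0.80), Lix1l (0.78) and Timp2 (0.78). Timp3 was closest to Tacc1 (0.81), Mpdz (0.81) and Pkd2 (0.79). Among the genes closest to Mmp13 were Pirb (0.73) and Ccr2 (0.69), which are expressed in monocytes and macrophages. Those closest to Mmp9 were Igf1 (0.59), Pf4 (0.59) and the macrophage lectin gene Mgl2 (0.57). Mmp3 was closest to Sod3 (0.72), the complement gene C3 (0.70) and Pdpn (0.67), and Timp1 to Mrc1 (0.57), C3 (0.55) and Eln (0.54). Timp4 was closest to Fabp4, the fatty acid binding protein gene of adipocytes and endothelium (0.80), Cyp2e1 (0.78) and Glb1l2 (0.77).

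The wider pathway gives the setting of these changes between 3 and 28 months, to be read beside the 23.5% of all genes that were higher and the 25.9% that were lower. Among the 11 other MMP genes tested, 4 were higher and 1 was lower. The macrophage elastase gene Mmp12 differed most, with a median of 0.791 CPM at 3 months (0.414 to 1.29), 0.990 at 15 months (0.567 to 1.65), 4.99 at 24 months (2.33 to 9.87) and 5.95 at 28 months (2.08 to 12.2). The 24-month and the 28-month mice all lay above all mice of 3 and of 15 months, and the log2 fold change was 3.01 ± 0.21 between 3 and 28 months (adjusted p = 2.1e-21) and 2.16 ± 0.20 between 15 and 24 months (adjusted p = 1.6e-13). Mmp25 (0.62), Mmp23 (0.36) and Mmp19 (0.26) were higher, and Mmp15, the most abundant, was lower by -0.30 ± 0.06 (adjusted p = 2.8e-05).

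Of 20 genes for MMP activators, other inhibitors and receptors, 10 were higher and 5 lower at 28 months. The rises with the largest fold were Serpinf1 (1.03), Lcn2, whose product binds Mmp9 (0.80), and Thbs2 (0.64), and the falls were led by Bsg, the MMP inducer (-0.20), Sparc (-0.19), Klk1 (-0.18) and Cd63, a partner of Timp1 on the cell surface (-0.08). Of 16 ADAM and ADAMTS genes, which Timp3 also inhibits, 3 were higher (Adamts1, Adamts15 and Adam8, by 0.37, 0.31 and 0.27) and 3 were lower (Adam15, Adam17 and Adam9, by -0.31, -0.22 and -0.10). Adam17, which sheds tumor necrosis factor and is a known target of Timp3, went from a mean of 54.9 ± 5.02 CPM to 46.9 ± 3.88 CPM.

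Of 16 genes for matrix proteins that MMPs cut, 6 were higher and 3 lower. The proteoglycan genes Dcn (0.51) and Bgn (0.39) with Fn1 (0.28) and Lama2 (0.26) were higher, and the fibrillar collagen genes Col3a1 (-0.31) and Col1a1 (-0.28) and Vcan (-0.25) were lower. Of 10 AP-1 and NF-kB subunit genes, Fosb (0.42) and Fosl2 (0.15) were higher and Nfkb1 (-0.10) was lower. The medians of the log2 fold changes of these lists lay between 0.04 and 0.18, beside -0.01 for all genes tested.

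Cell type markers were compared between the same ages, where again 23.5% of all genes were higher and 25.9% lower. Higher at 28 than at 3 months were 3 of 8 fibroblast markers (Cxcl12, Clec3b and Dpt), none of 7 smooth muscle markers, 4 of 6 endothelial markers, 4 of 5 mesothelial markers and 1 of 6 T cell markers. The fifth mesothelial marker, Upk1b, was lower by -0.19 (adjusted p = 0.090). Lower too were 3 of 7 epithelial markers, 1 of 5 markers of enteric glia and 4 of 5 B cell markers, the latter with a median log2 fold change of -1.31. Between 15 and 24 months, where 6.28% of all genes were higher, 4 of 7 macrophage, 4 of 6 endothelial and 2 of 8 fibroblast markers were higher and no smooth muscle marker was. Between 3 and 24 months, where 34.5% of all genes passed, 6 of 7 macrophage, 5 of 8 fibroblast, 4 of 7 smooth muscle and 4 of 6 endothelial markers were higher. So were 4 of 5 tested neutrophil and 4 of 5 mesothelial markers, while 1 neutrophil and 4 of 7 epithelial markers were lower. The summed fibroblast markers ranged from 511 to 899.8 TPM at 3 months (median 700) and from 506 to 971 TPM at 28 months (median 783). Those of smooth muscle ranged from 922 to 6157 TPM at 3 months (median 4159) and from 2835 to 5702 TPM at 28 months (median 4541). With scores of the fibroblast and smooth muscle markers in the model, the difference between 3 and 28 months was 0.39 for Timp3 (adjusted p = 2.3e-08), 0.22 for Timp2 (adjusted p = 5.8e-08) and 0.24 for Mmp11 (adjusted p = 0.0035). With macrophage and neutrophil scores it was 0.41 for Timp3 (adjusted p = 5.9e-06), 0.22 for Timp2 (adjusted p = 0.0030) and 0.19 for Mmp11 (adjusted p = 0.079). In the latter model Mmp13 (-0.43, adjusted p = 0.015), Timp1 (-0.48, 0.00035), Mmp3 (-0.37, 0.077) and Mmp2 (-0.13, 0.068) passed as lower at 28 months. The part of the endothelial, mesothelial, epithelial, glial, B cell and T cell markers in these results was not tested.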

How the data were processed

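RNA-seq libraries (TruSeq Stranded mRNA) of colon tissue were sequenced as read pairs. Adapter and quality trimming (cutadapt 2.8, PrinSeq Lite), alignment to GRCm38 (HISAT2 2.1.0), selection of uniquely mapped reads (SAMtools 1.9) and strand-aware counting of pairs per gene (featureCounts, Subread 2.0.1) were done by the authors. Their deposited table holds raw counts, neither normalized nor pooled. Symbols, positions and merged exon lengths came from GENCODE M21 (GRCm38), an earlier release than the authors' annotation, in which 37652 genes were found and 112 were not. Ages were taken from the sample titles and batches from the labels. Same-age pairs of mice, 649 in all, differed by more than counting noise.

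Counts were analyzed with edgeR 4.0.16 in R 4.3.3: filterByExpr by age (18325 genes kept), TMM, one quasi-likelihood model with age and library batch over 83 mice, Benjamini-Hochberg adjustment over all genes within each comparison, threshold 0.1. CPM are TMM-normalized, log2 CPM used a prior count of 2, and TPM used the merged exon lengths. Spread was tested with limma 3.58.1. Pairs were tested in Python 3.11.15 with scipy 1.17.1. Alternatives were DESeq2 1.42.0 and its size factors, limma-voom, other filters, no batch term, a replicate block, marker scores, single batches, 2 ages alone, a prior count of 0.5 and leaving out libraries, the latter chosen after seeing the data.

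The members and gene lists were chosen with earlier results of these data known. Named were the members, at most 4 rises and 4 falls past the threshold in each other list between 3 and 28 months, and the 3 genes most like each member. Motifs, marker genes and Mmp8, Mmp1a and Mmp28 were named besides. Some genes that this rule names are not reported here.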

Additional observations from a re-analysis of the deposited data

How the results depend on the processing

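The number of members past the threshold between 3 and 28 months was 5, and it was 8 with macrophage and neutrophil scores in the model and 2 in library batch 1 alone, where 49.5% and 19.1% of all genes passed. The 5 were all higher at 28 months. Of the 8, Mmp2, Mmp3, Mmp13 and Timp1 were lower at 28 months, and Mmp14 was not among them. Timp2 and Timp3 kept their direction and their side of the threshold in this comparison under all 16 alternatives run. Between 15 and 24 months 4 members passed, and 0 did in each batch alone, where 0.0764%, 1.03% and 0.147% of all genes passed. Newly past the threshold in this comparison were Mmp2 in limma-voom (0.17, adjusted p = 0.044) and without the pair of 15-month mice (0.23, 0.055), and Mmp13 with macrophage and neutrophil scores (-0.45, 0.031). Between 3 and 9 months 1 passed, and 0 did in each batch alone (0.164%, 0.322% and 0.628% of all genes) and in limma-voom (5.28%). Between 24 and 28 months 1 passed, 4 with fibroblast and smooth muscle scores (Mmp9, Timp1, Timp2 and Timp3, with 14.1% of all genes), 2 with macrophage and neutrophil scores (Mmp9 and Timp1, with 13.7% of all genes), and 0 in batches 2 and 3 alone, where 0 and 18 of all genes passed. In batch 1 alone the 1 member past the threshold was Timp1 (-0.63, adjusted p = 0.064; 3.84% of all genes). Single batches hold 4 to 7 mice per age. The departure from a straight line was passed by 1 member, and by 2 without the pair of 15-month mice (Mmp9 and Mmp2), where 2586 of 18419 genes did. Of 913 values of single genes under alternatives, 29 changed sign and are counted apart, whichever side of the threshold they were on. Of the others, 767 kept direction and side, 106 no longer passed and 11 newly passed.

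Changes of sign were as follows, in log2 units, and their cause was not tested. With fibroblast and smooth muscle scores, Mmp2, Mmp3 and Mmp9 were at -0.031, -0.16 and -0.050 between 3 and 28 months, and Mmp3 and Timp1 at -0.042 and -0.11 between 15 and 24 months. With macrophage and neutrophil scores, Mmp2, Mmp3 and Mmp9 were at -0.13, -0.37 and -0.22 between 3 and 28 months, Mmp2 at -0.037 between 9 and 28 months, and Mmp3 and Timp1 at -0.065 and -0.16 between 15 and 24 months. In batch 1, Mmp2 and Mmp9 were at -0.0093 and -0.12 between 3 and 28 months and Mmp13 at 0.088 between 15 and 24 months. In batch 2, Mmp13 was at 0.43 between 3 and 28 months, Timp1 at -0.067 and Timp4 at -0.40 between 15 and 24 months, and Timp4 at -0.055 between 3 and 24 months. In batch 3, Mmp3 was at -0.14 between 3 and 28 months, Mmp9 at 0.019 between 15 and 24 months and Timp1 at 0.12 between 15 and 28 months. Timp1 between 15 and 24 months was at -0.060 in limma-voom and -0.017 without the low-weight libraries. Mmp13 between 3 and 28 months, at -0.01, was at 0.00093 with at least 10 counts in every mouse, 0.012 with the 2 ages alone, 0.097 in limma-voom, 0.16 without the 3-month mouse, 0.0033 without the pair of 15-month mice and 0.052 with the replicate block. Timp4 had no value with at least 10 counts in every mouse.

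Replicate numbers did not pair the mice. The median correlation of 161 same-numbered pairs was 0.0016 (-0.33 to 0.27), and 4 of 83 mice were closest to one of their own number. With the replicate number as a block, 5 members passed between 3 and 28 months (47.1% of all genes) and 3 between 15 and 24 months (11.6%), where Mmp9 no longer passed (-0.31, adjusted p = 0.17). Depth limits Timp4 most, with a median of 27 counts per mouse.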
